A study of Homo sapiens with 4 samples.

Results

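Inclusion of skipped exons was examined in 56 genes of mitosis, the centrosome and the cell cycle, after depletion of the splicing factor SNRPB2. A gene belonged to the set by name, and an event to a gene when its skipped exon shared a boundary with an exon of that gene in GENCODE release 29 (hg38), on the same strand. Of the 56 genes, 48 had events, among 12012 genes with events in the comparison. They held 238 of the 42670 events listed for siSNRPB2 and 238 of the 42159 listed for siCtrl, over 198 skipped exons. PLK1, NEK2, BUB3, ZW10, CENPF, CDC20, FBXO5 and CEP55 had no listed event and were not analysed here.

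Total RNA came from MDA-LM2, a human breast cancer cell line derived from MDA-MB-231 and selected for metastasis to the lung, 48 h after small interfering RNAs were transfected. SNRPB2 was silenced with 2 independent siRNAs, to a knockdown of over 95% by quantitative PCR, in the cells of 2 libraries (siSNRPB2), and 2 further libraries had a control transfection (siCtrl), per the labels. Which siRNA went into which library is not given in the sources used here. Each file gives 1 value per event for a whole group, and no difference could be checked between replicates. SNRPB2 itself had no event in the comparison, and its transcript level was not analysed here.

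The cell cycle is driven by cyclin-dependent kinases, which are switched on by cyclins and CDC25 phosphatases. In mitosis, Aurora and Polo kinases, the kinetochores and the centrosomes build the spindle, and a checkpoint holds back the anaphase promoting complex until every chromosome is attached. Many of these genes have long, exon-rich transcripts, and many of their products act in the divisions of a proliferating line. The product of SNRPB2, U2B'', belongs to the U2 particle of the spliceosome, which pairs with the branch point ahead of an exon.

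The inclusion level ψ is the authors' estimate of how much of a gene's transcripts, as a fraction, retain the exon. Reads that fit only the isoform with the exon (inclusion-only) or only the isoform without it (exclusion-only) are called informative. Tests were limited to exons with 20 or more such reads in both files, which left 166 of the 198 exons, in all 48 genes, of 18682 tested exons in the files. The tested exons of the set had a median of 205.5 informative reads in siSNRPB2 and 227 in siCtrl, against 137 and 158 over all tested exons. An exon was called when the Bayes factor in the authors' deposited table was at least 10 and ψ differed by at least 0.1. The Bayes factor is the evidence for a difference over the evidence for none. ψ intervals below are the authors', and their level is not given in the sources used here.

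Of the basal and mesenchymal markers with events, CD44 was at 2288 RPM (with reads counted on 1 event of each gene) in siSNRPB2 and 2615 in siCtrl, EGFR at 173 and 208, FN1 at 126 and 156, ANXA1 at 13.8 and 12.5, and SPARC at 5.41 and 5.62. Of luminal markers KRT8, an epithelial keratin, was at 666 and 716 RPM and GATA3 at 10.2 and 18.4. ESR1, the estrogen receptor, had 10 and 1 reads and of the blood cell markers PTPRC had 8 and 51, CD3E 30 and 1, and LYZ 25 and 4. VIM, CAV1, EPCAM, CDH1, KRT18, ERBB3, PECAM1, CDH5 and HBB had no event in the comparison. The part of other cell types in the results was not tested.

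In the set 19 exons were called lower in siSNRPB2 and 15 higher, in 22 genes. Over all tested exons 7.61% were called lower and 7.13% higher, against 11.4% and 9.04% in the set. The counts by role below rest on 10 to 39 exons each and are to be set beside the same shares of all tested exons. Counting overlapping exons once, the calls fell on 29 of 138 sites, 17 lower and 12 higher. Sites were not counted over all tested exons, so the set has no share to be compared with here. The median ψ difference was 0 in the set and 0 over all tested exons. The other 26 genes had tested exons and no call.

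**Figure D1:**
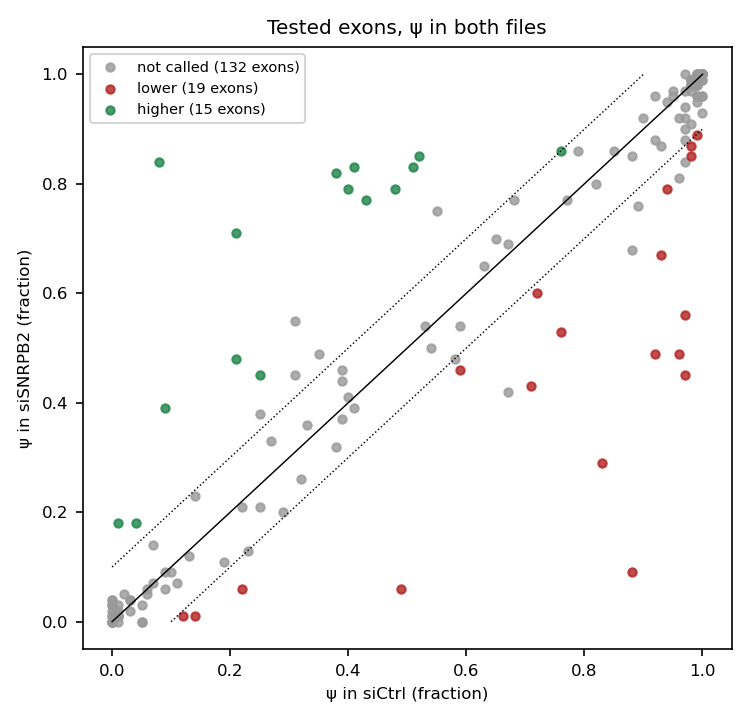
Inclusion level ψ (fraction) of the 166 tested exons, siCtrl on the horizontal and siSNRPB2 on the vertical axis, 1 point per exon. The solid line marks equal ψ and the dotted lines a difference of 0.1. Most of the 132 exons not called lie near the solid line, and the 19 lower and 15 higher calls lie on either side of it.

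Reads crossing the skipping junction were present for 26 of the called exons, 17 lower and 9 higher. The 8 other called exons were without such a read, and only the numbers of reads inside them and in the flanking exons enter their ψ. Over all tested exons 869 of 1422 lower and 797 of 1332 higher calls had such a read. Among tested exons, called or not, 63.9% of the set had one, against 48.9% in the files. The part of this difference in the shares of calls was not tested. Inclusion-only and exclusion-only reads were also compared between the files by a 2-sided Fisher's exact test, with Benjamini-Hochberg adjustment over all tested exons. In the set 24 exons passed, with an adjusted p below 0.05 and shares of inclusion-only reads at least 0.1 apart, which was 14.5% of the set against 10.6% of all tested exons. Of the 34 called exons, 14 passed this test in the direction of the call and 20 did not, against 1067 of 2754 called exons of the files that passed. The 10 other exons that passed were not called, among them exons of BIRC5 (165 nt, inclusion shares 31.1% and 14.7%), INCENP (12 nt, 33.6% and 19.5%), CDK2 (144 nt) and ECT2 (forms of 323 and 287 nt). This test compares the files, not the conditions. In exons kept in nearly all transcripts of both files, the counts of inclusion-only and shared reads varied more between the files than independent reads would, with a median chi-square 9.94 times the expected one. With reads divided by this factor, taken among exons of similar depth, 0 exons of the set passed, and 2 (ECT2 and DLGAP5) had an unadjusted p under 0.05. Over all 18682 tested exons only 1 passed in this way, so the 0 is not particular to the set. Division leaves few reads in many exons, and small or moderate changes could then hardly pass. Every adjusted p below is on undivided reads unless stated.

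**Figure D2:**
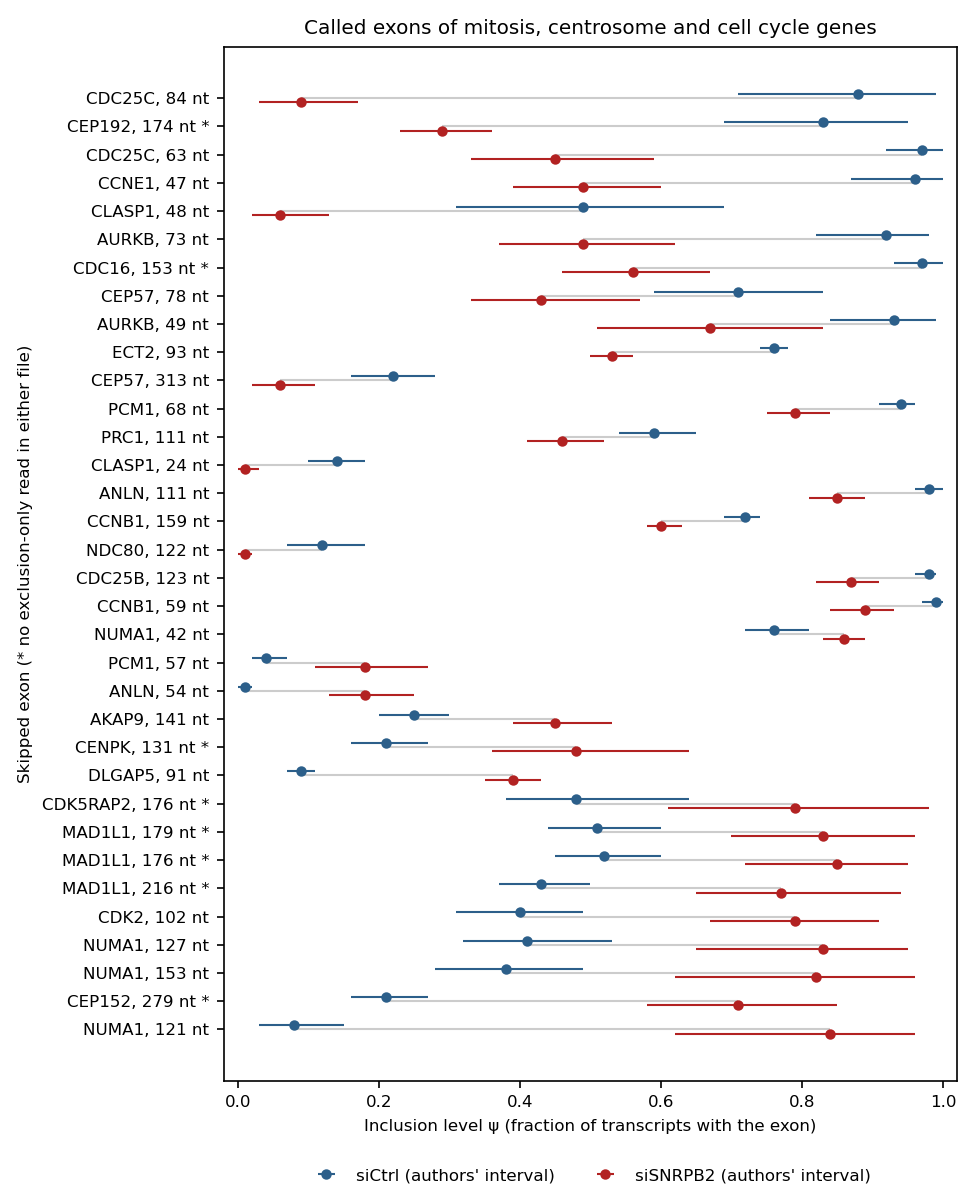
ψ (fraction) of the 34 called exons with the authors' intervals, siCtrl in blue and siSNRPB2 in red, ordered by the ψ difference, with gene and exon length as row names. Stars mark the 8 exons with no exclusion-only read. CDC25C (84 nt) has the largest decrease and NUMA1 (121 nt) the largest increase.

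Cyclins, cyclin-dependent kinases and CDC25 phosphatases had 6 exons called lower and 1 higher of 26, and 2 of the 6 are forms of 1 CDC25C exon. The largest decrease was in CDC25C, the phosphatase that activates CDK1 at entry into mitosis. Its exon of 84 nt, at chr5:138289480-138289563 in hg38, is coding and was at ψ 0.09 (interval 0.03 to 0.17) in siSNRPB2 and 0.88 (0.71 to 0.99) in siCtrl. Inclusion-only reads numbered 6 and exclusion-only reads 19 in siSNRPB2, and 53 and 0 in siCtrl, where 0 of 53 allows an exclusion share of up to 5.66% (taken here and below as 3 reads of the total). A shorter form of the same exon, of 63 nt, ends 21 nt earlier and was at 0.45 in siSNRPB2 and 0.97 in siCtrl. Its exclusion-only reads are the same 19 and 0, with 38 and 90 inclusion-only reads. No read skipping the exon was seen in siCtrl, and both forms of it were called lower. By Fisher's exact test the adjusted p was 2.38e-11 for the long and 6.37e-08 for the short form. With divided reads it was 1 for both, but too few reads were left after division for either form to pass, whatever their split. The junction that skips the exon is in no GENCODE transcript. The 2 forms are shown because they carry the largest change, with the bases only in the long form in capitals (the short form ends where the capitals begin; strand -, from the annotated transcript).

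CDC25C exon, 84 nt: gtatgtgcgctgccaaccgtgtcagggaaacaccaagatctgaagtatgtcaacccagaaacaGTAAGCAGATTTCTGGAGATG

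CCNE1 encodes cyclin E1, which drives entry into S phase with CDK2. Its exon of 47 nt at chromosome 19, 29812532 to 29812578, holds the start of the coding sequence and was at 0.49 in siSNRPB2 and 0.96 in siCtrl. In siSNRPB2 54 reads were inclusion-only and 26 exclusion-only, against 50 and 0 in siCtrl. The adjusted p was 1.14e-05 by Fisher's exact test. That skipping junction too is in no GENCODE transcript.

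CCNB1, the mitotic cyclin B1, had a coding exon of 159 nt called lower at 0.6 and 0.72 (chromosome 5, 69174251 to 69174409), with 63 and 16 exclusion-only reads. Its exon of 59 nt was at 0.89 and 0.99, with 16 and 0 exclusion-only reads. CDC25B, a phosphatase acting on CDK1 early in mitosis, had a coding exon of 123 nt at 0.87 and 0.98 (chromosome 20, 3800743 to 3800865), with 24 and 3 exclusion-only reads. In these 3 exons inclusion-only reads made up at least 94.9% of informative reads in both files, also in the CCNB1 exon of 159 nt, where ψ was far lower than that share.

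CDK2, the partner of cyclin E, went the other way: its coding exon of 102 nt (chromosome 12, 55969475 to 55969576) was at 0.79 and 0.4, with 1 and 2 exclusion-only reads, inclusion shares of 99.5% and 97.5%, and an adjusted p of 0.681 by Fisher's exact test. CDK1, CDK4, CCNB2 and CDC25A had no called exon.

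Spindle and microtubule proteins had 2 exons called lower and 5 higher of 21, and each had exclusion-only reads. DLGAP5, a protein that stabilises microtubules at kinetochores, had a coding exon of 91 nt (chr14:55148594-55148684) at ψ 0.39 (0.35 to 0.43) in siSNRPB2 and 0.09 (0.07 to 0.11) in siCtrl. In siSNRPB2 295 reads were inclusion-only and 181 exclusion-only, an inclusion share of 62.0% (exact 95% interval 57.4 to 66.4, counting error only), and 75 and 276 in siCtrl, a share of 21.4% (17.2 to 26.0). The exon is thus a minor form in siCtrl and a frequent one in siSNRPB2. By Fisher's exact test the adjusted p was 6.43e-29. With divided reads the exact test gave an adjusted p of 0.784 and an unadjusted p of 0.00066.

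NUMA1, which ties dynein to the spindle poles, had 4 exons called higher. Its upstream exon of 121 nt, untranslated at the 5' end (chromosome 11, 72049419 to 72049539), was at 0.84 (0.62 to 0.96) in siSNRPB2 and 0.08 (0.03 to 0.15) in siCtrl, with 29 inclusion-only and 1 exclusion-only read against 8 and 25. Farther upstream, the forms of 153 nt (0.82 and 0.38) and 127 nt (0.83 and 0.41) of another exon rest on the same exclusion-only reads, 1 and 25. The 3 calls thus share 1 small pool of exclusion-only reads. A coding NUMA1 exon of 42 nt (chromosome 11, 72012401 to 72012442) was higher by 0.1, at 0.86 and 0.76, on 580 reads for and 50 against inclusion in siSNRPB2 and 542 and 86 in siCtrl.

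CLASP1 encodes a protein that tracks microtubule plus ends, and 2 of its small coding exons were called lower. The exon of 48 nt (chr2:121445449-121445496) was at 0.06 (0.02 to 0.13) and 0.49 (0.31 to 0.69), with 3 reads for and 23 against inclusion in siSNRPB2 and 19 and 6 in siCtrl. The exon of 24 nt (chr2:121409024-121409047) was at 0.01 and 0.14, with 0 inclusion-only reads of 108 informative in siSNRPB2, which allows a share of up to 2.78% as 3 reads of the total (exact 95% upper bound 3.36%), and 34 of 212 in siCtrl. Both lengths are multiples of 3. CLASP2, the related gene, had 3 tested exons with ψ differences between 0.00 and 0.01. CKAP5, TACC3 and NUSAP1 had no call, and their ψ differences lay between -0.01 and 0.05. The 2 small CLASP1 exons are printed because both were lower in 1 gene; capitals mark the last 3 bases, next to the 5' splice site (strand -).

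CLASP1 exon, 48 nt: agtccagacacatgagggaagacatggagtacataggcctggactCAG
CLASP1 exon, 24 nt: ctgttaggagactccaggagcAAG

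Cytokinesis genes had 3 exons called lower and 1 higher of 20. ECT2, the exchange factor that activates RHOA at the division plane, had the called exon with the most exclusion-only reads. This coding exon of 93 nt (chr3:172755483-172755575) was at ψ 0.53 (0.5 to 0.56) in siSNRPB2 and 0.76 (0.74 to 0.78) in siCtrl. In siSNRPB2 941 reads were inclusion-only and 481 exclusion-only, an inclusion share of 66.2% (exact 95% interval 63.6 to 68.6), and 1680 and 309 in siCtrl, a share of 84.5% (82.8 to 86.0). Both forms were thus frequent in both files, and the form without the exon was more frequent in siSNRPB2. By Fisher's exact test the adjusted p was 7.35e-32. With divided reads the exact test gave an adjusted p of 0.784 and an unadjusted p of 5.67e-04. GENCODE holds 3 transcripts with the exon and 7 that skip it, and its 93 nt encode 31 residues.

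ANLN encodes anillin, the scaffold of the contractile ring. Its coding exon of 54 nt (chr7:36428307-36428360) was at 0.18 in siSNRPB2 and 0.01 in siCtrl, with 31 inclusion-only reads of 78 informative against 0 of 72 (Fisher's exact test, adjusted p = 2.53e-09). Another ANLN exon, of 111 nt (chromosome 7, 36417080 to 36417190), was at 0.85 and 0.98, with 14 and 1 exclusion-only reads beside 1707 and 2352 inclusion-only reads. PRC1, which bundles the central spindle, had an exon of 111 nt at 0.46 and 0.59, with 2 and 4 exclusion-only reads (exact test, adjusted p = 1); the exon also lies in the overlapping gene AC068831.7. RACGAP1, the partner of ECT2 in the central spindle, had 5 tested exons and no call. The ECT2 and ANLN exons are shown because the first had the most exclusion-only reads of the called exons and the second was without an inclusion-only read in siCtrl; capitals mark the last 3 bases (strand +).

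ECT2 exon, 93 nt: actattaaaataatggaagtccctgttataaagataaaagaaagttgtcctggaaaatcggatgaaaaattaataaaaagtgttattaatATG
ANLN exon, 54 nt: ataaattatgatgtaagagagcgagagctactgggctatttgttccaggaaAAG

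Centrosome and satellite genes had 4 exons called lower and 4 higher of 39. PCM1, the scaffold of centriolar satellites, had an exon of 68 nt, untranslated at the 5' end, at 0.79 and 0.94 (73 and 20 exclusion-only reads), although the median ψ difference over both of its events was -0.065. Its coding exon of 57 nt was at 0.18 and 0.04, with 16 of 33 informative reads for inclusion against 7 of 106. AKAP9, which anchors kinases at the centrosome, had a coding exon of 141 nt (chromosome 7, 92042046 to 92042186) at 0.45 and 0.25, with 2 and 10 exclusion-only reads. CEP57, a protein around the centriole, had exons of 78 nt (0.43 and 0.71) and 313 nt (0.06 and 0.22) called lower. The exon of 313 nt had 15 and 35 exclusion-only reads, with an adjusted p of 0.0632 by the exact test. That of 78 nt had 0 and 5, beside 58 and 113 inclusion-only reads. Its inclusion share, 100% and 95.8%, was thus not lower in siSNRPB2, against the call (exact test, adjusted p = 0.622). The calls in CEP192 (174 nt, 0.29 and 0.83), CEP152 (279 nt, 0.71 and 0.21) and CDK5RAP2 (176 nt, 0.79 and 0.48), which all help to recruit pericentriolar material or start centriole copying, had no exclusion-only read. CEP290 had none called.

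Kinetochore genes had 1 exon called lower and 1 higher of 19. NDC80, which binds microtubules, had an exon of 122 nt (chr18:2577236-2577357) at 0.01 and 0.12, with 0 inclusion-only reads of 33 informative in siSNRPB2 and 17 of 74 in siCtrl, with an adjusted p of 0.0094 by Fisher's exact test. CENPK, a subunit of the inner kinetochore, had an exon of 131 nt at 0.48 and 0.21 with no exclusion-only read. No exon of CENPE, NUF2, SPC25, KNL1 or SKA2 was called.

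Mitotic kinases had 2 calls of 16, both lower and both on forms of 1 exon of AURKB, the kinase of the chromosomal passenger complex. The form of 73 nt was at 0.49 and 0.92 and that of 49 nt at 0.67 and 0.93, with 1 and 2 exclusion-only reads shared by both (exact test, adjusted p = 1). The exon holds the start of the coding sequence. BIRC5, the passenger subunit survivin, had 5 tested exons with ψ differences between -0.01 and 0.07. AURKA, INCENP, TTK and TPX2 had no call.

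Checkpoint genes had 3 calls of 15, all higher and all on overlapping forms of 1 exon of MAD1L1, which brings MAD2 to kinetochores. Forms of 179 nt (0.83 and 0.51), 176 nt (0.85 and 0.52) and 216 nt (0.77 and 0.43) lacked exclusion-only reads in both files. BUB1, BUB1B, MAD2L1 and ZWILCH had no call. Of the anaphase promoting complex, CDC16 had 1 exon called lower of the 10 tested exons (153 nt, 0.56 and 0.97), also without an exclusion-only read, and CDC27 and CDC23 had none.

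Lengths of coding exons were examined after the calls had been seen. Of 20 called exons that lie inside a coding sequence, 18 (90%) had a length that is a multiple of 3, and of 86 not called 52 (60.5%). Over all tested exons of the files the shares were 52.6% of 1689 called and 46.8% of 9641 not called coding exons. The 2 exceptions were the DLGAP5 exon of 91 nt and the NDC80 exon of 122 nt. The median length was 111 nt for called exons and 123.5 nt for the others.

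Small amounts of skipping and inclusion were followed in exons near the ends of the ψ scale, chosen by the mean ψ of both files after values had been seen. Among 61 exons of the set with a mean ψ of at least 0.9, 8 had more skipping in siSNRPB2 by Fisher's exact test (adjusted p under 0.05, with no minimum difference), 13.1% against 4.07% of such exons in the files, and 2 had less, 3.28% against 3.11%. The set was deeper here, with a median of 1254 informative reads over both files against 541, and the part of depth in these shares was not tested. The 8 were in CCNB1 (2 forms of 1 exon), PRC1 (2 exons), CDK4, CDC25B, ANLN and NUMA1. For CDK4, the kinase partner of cyclin D, exclusion-only reads of the exon of 136 nt were 24 of 1823 in siSNRPB2, 1.32%, and 0 of 2728 in siCtrl, which allows up to 0.11% as 3 reads of the total (exact 95% upper bound 0.135%). For the PRC1 exon of 123 nt they were 25 of 1980 and 0 of 2700, and for that of 133 nt 11 of 971 and 2 of 1721. The large NUMA1 exon of 3366 nt had 31 of 24388 and 4 of 26521. The opposite was seen in AURKB (185 nt, 1 of 2286 and 17 of 2074) and BIRC5 (118 nt, 136 of 2106 and 246 of 2901).

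Among 38 exons with a mean ψ of at most 0.1, 9 had more inclusion in siSNRPB2 by the same test, 23.7% against 14.2% in the files, and 5 had less, 13.2% against 13.1%. An exon of MAD1L1 (139 nt) had 19 inclusion-only reads of 261 in siSNRPB2 and 0 of 371 in siCtrl. In CEP192, 2 exons had 12 each in siSNRPB2 and 0 in siCtrl, of 166 and 245 informative reads (175 nt) and of 120 and 102 (151 nt). BUB1B (124 nt) had 10 of 130 and 0 of 175. The others were in TPX2, CDC25B, PRC1 (2 exons) and ANLN. Less inclusion was seen in CDK2 (144 nt, 0 of 117 and 18 of 72), NUF2 (229 nt, 1 of 47 and 24 of 63) and CENPE (120 nt, 44 of 50 and 113 of 113), beside the CLASP1 and NDC80 exons above. In the CENPE exon ψ (0.07 and 0.11) and the shares of inclusion-only reads (88% and 100%) disagreed. None of these exons passed with divided reads. The same held for all 4115 exons of the files with a mean ψ of at most 0.1, and for the 7819 of at least 0.9. Most of these changes rest on few reads of the rarer class, and division left too few of them to pass. The divided test thus says little about exons near the ends of the scale.

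**Figure D3:**
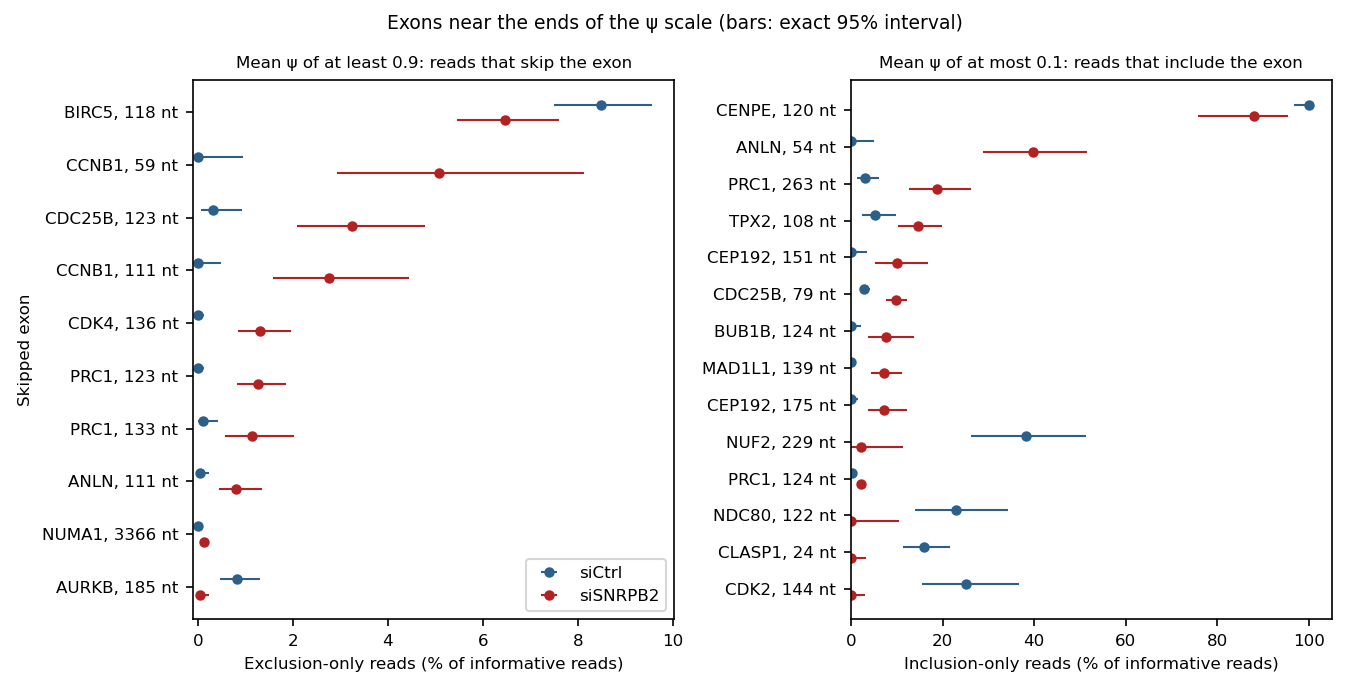
Left, exclusion-only reads as a percentage of informative reads in the 10 exons with a mean ψ of at least 0.9 and an adjusted p under 0.05 by Fisher's exact test; right, inclusion-only reads in the 14 such exons with a mean ψ of at most 0.1. Points are siCtrl (blue) and siSNRPB2 (red), and bars are exact 95% intervals for counting error only. In 8 of 10 exons on the left and 9 of 14 on the right the red point lies to the right of the blue.

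Reads on the deepest event of each gene served as a proxy of its transcript level; fewer cells in mitosis and less RNA per cell cannot be told apart in such bulk values. A gene was counted as higher or lower past a log2 ratio (siSNRPB2 over siCtrl, pseudocount 1) of 0.5, with at least 100 reads on average, which all 48 genes had. In the set 4 genes were higher and 4 lower, 8.33% each, against 9.52% and 10.0% of 8331 genes. The median log2 ratio was -0.08, against 0.00 over all genes, and 19 genes were above 0 and 29 below.

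CCNE1 was highest, with 436 reads in siSNRPB2 and 198 in siCtrl, a log2 ratio of 1.31 (95% interval for counting error 1.07 to 1.55), and 1.55 on its other event of at least 100 reads. CDC25A, the phosphatase that activates CDK2 at the start of S phase, had 709 and 392 reads, a log2 ratio of 1.03 (0.85 to 1.21) on its only event. NDC80 had 252 and 126 reads (log2 ratio 1.17), also on 1 event. Its 219 and 52 reads that fit both isoforms were higher in siSNRPB2, while its informative reads were lower, 33 and 74.

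CDC23, a subunit of the anaphase promoting complex, was lower with 362 and 619 reads (log2 ratio -0.60), and at -1.14 on its other event. For the remaining 4 genes past 0.5 the direction differed between events of the gene: CEP152 (0.78 on the deepest event and -0.21 on the other), CENPE (-0.53 and 0.26), CENPK (-0.66, with up to 0.80) and CEP290 (-0.85 and 0.14). With reads summed over all events none of these 4 was past 0.5, while CDK4 (-0.55) and CEP57 (-0.50) were lower. CEP57 was at 0.02 on its deepest event and ran from -1.14 to 0.15 over its events. CDK4 was between -0.60 and -0.46 on each of its 5 events, with 4584 and 7103 reads on the deepest.

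By role, the cytokinesis genes lay close together, between -0.20 (ECT2) and -0.10 (RACGAP1), and all 3 subunits of the anaphase promoting complex were below 0 (CDC27 at -0.18 and CDC16 at -0.32 beside CDC23). The direction was not the same on every event: ANLN ran from -0.37 to 0.51 and RACGAP1 from -0.57 to 0.22 over events of at least 100 reads, and CDC27 from -0.48 to 0.06. Of the mitotic kinases and their partners, INCENP was at 0.36 and BIRC5 at -0.25. AURKA was at 0.03 on its deepest event (-0.26 to 0.32) and at -0.36 with reads summed over all events. On their deepest events CCNB1 (-0.06) and CDK1 (0.04), whose transcripts peak in mitosis, were near 0. CCNB1 ran from -0.22 to -0.06 over its 3 events, and CDK1 had 1 event. Other mitotic genes lay on both sides of 0, with CCNB2 at -0.17, KNL1 at -0.33 and TPX2 at 0.22.

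**Figure D4:**
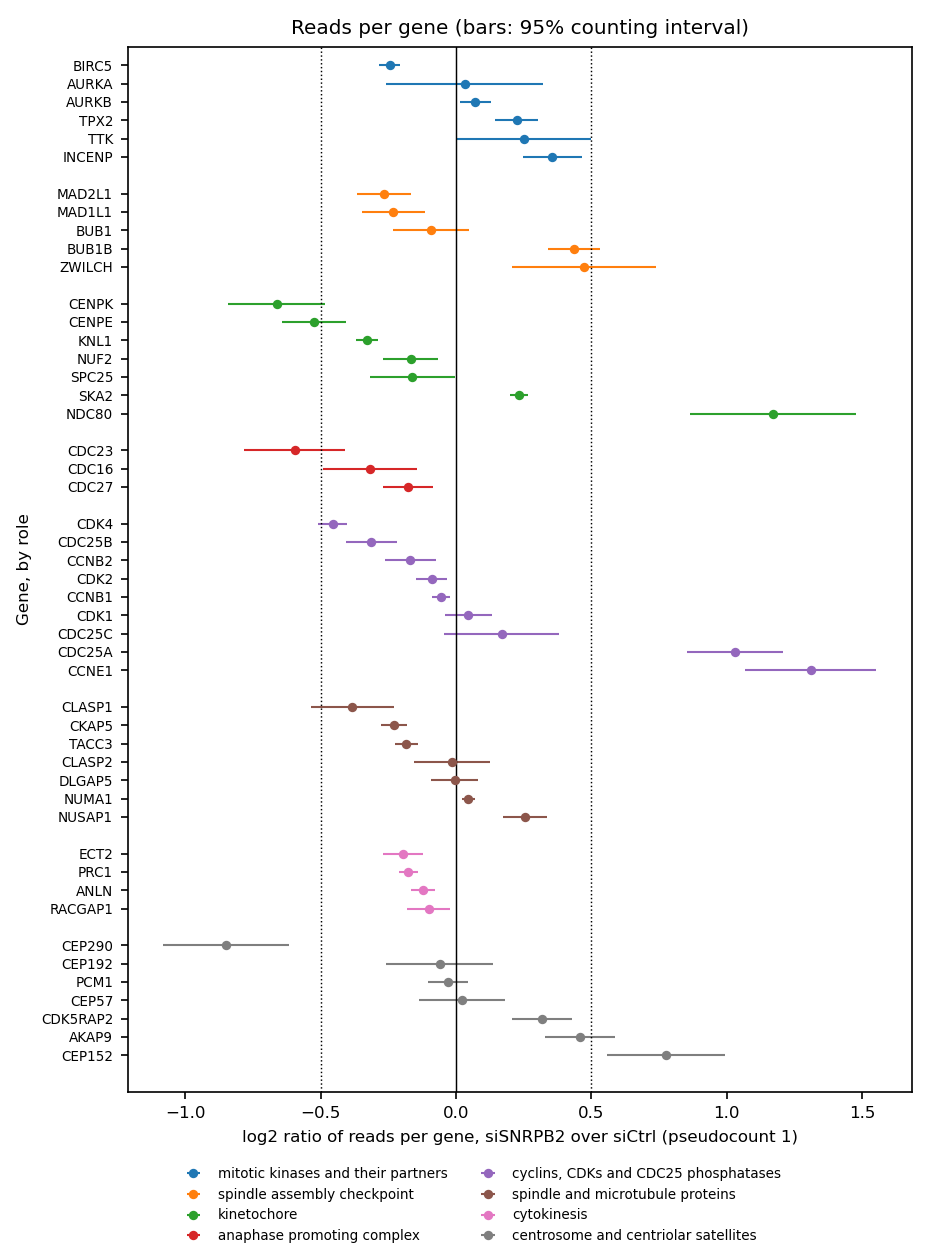
log2 ratio of reads per gene, siSNRPB2 over siCtrl, for the 48 genes with events, grouped and coloured by role; bars are 95% counting intervals and dotted lines mark 0.5 in each direction. CCNE1, NDC80, CDC25A and CEP152 lie past the right line, and CEP290, CENPK, CDC23 and CENPE past the left.

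In a list of 165 other cell cycle genes, 113 had tested exons, and 25 of 308 exons were called lower and 22 higher. These shares, 8.12% and 7.14%, were near the 7.61% and 7.13% of all tested exons. The largest decreases were in PMF1, a kinetochore protein (ψ 0.28 and 0.96), OFD1, of centriolar satellites (0.16 and 0.62), and TACC1 (0.34 and 0.76), with exclusion-only reads in OFD1 alone (2 and 12). The OFD1 exon had 18 and 85 inclusion-only reads, so its inclusion share was not lower in siSNRPB2, and it did not pass the read test. The largest increases were in TUBGCP4, of the gamma-tubulin ring complex (0.95 and 0.46), ANAPC16, of the anaphase promoting complex (0.86 and 0.39, with 3 and 14 exclusion-only reads), and CENPA, the histone of centromeres (0.77 and 0.31, with 0 and 15). By reads per gene 4 of 121 were higher and 11 lower, 3.31% and 9.09% against 9.52% and 10.0% of all genes. Their median log2 ratio was -0.07.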

How the data were processed

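Per the submitters' processing notes, reads were aligned with STAR 2.7 to hg38. The authors deposited MISO summaries per the file headers: ψ as a fraction with an interval, and read numbers per class of compatibility with the isoforms. Their deposited comparison holds the change in ψ from siCtrl to siSNRPB2 and the Bayes factor as a ratio. Read numbers and interval bounds are listed as other values in the deposited files. How 2 libraries became 1 value, and the MISO version, is not given in the sources used here. Sequences are those of GENCODE release 29 transcripts.

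For each skipped exon the event with the most informative reads was kept. Fisher's exact test was adjusted by Benjamini-Hochberg over 18682 exons. It was also run on simulated data with independent reads, which does not cover the added variation between the files. The noise factor came from 4582 exons, whose ψ reached 0.95 in both files and which lacked exclusion-only reads, and ran from 7.95 to 11.9 over 5 groups of depth. It may hold differences between conditions. Reads can be counted in several overlapping events. Intervals cover counting error only.

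The genes, lists and tests were chosen with earlier results of these data known. All called exons are named, and all genes past the log2 ratio; from the other cell cycle genes, the 3 largest calls per direction. Tests ran in scipy 1.17.1 with numpy 2.4.6, tables in pandas 2.3.3 and figures in matplotlib 3.10.9, under Python 3.11.15.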

Additional observations from a re-analysis of the deposited data

Results flagged for a closer look

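Some reads on an event match neither the isoform with the exon nor the one without, and these entered none of the comparisons. On the deepest events of the 48 genes they made up 22.1% of reads in siSNRPB2 and 21.3% in siCtrl, above the control file, and the share was higher in siSNRPB2 in 31 genes. Over all events of the files the shares were 61.2% and 59.1%. Their level cannot be set against that of the set, because the deepest events were picked for reads that fit an isoform. The difference was not tested.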

How the results depend on the processing

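Of the 19 lower and 15 higher calls, 10 and 12 were left with a ψ difference of at least 0.2, 17 and 9 with only exons that had an exclusion-only read, and 10 and 8 with the share of inclusion-only reads in place of ψ. The counts stayed within 1.5 times under the other thresholds of the Bayes factor, other read minimums and the median over events. The 24 exons past the read test became 16 with at least 50 informative reads. With reads divided by the noise factor they became 0, as 1972 over all tested exons became 1. With at least 1000 reads on average, 0 genes were higher and 1 lower by reads per gene. The median log2 ratio lay between -0.14 and -0.07 over all alternatives run. No paired analysis was possible because the files hold 1 value per group, and for the same reason no library could be left out. At low depth few junction reads decide a call, as for NUMA1 and CDC25C.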

Other observations

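In 12 exons of the set ψ differed by at least 0.1 with a Bayes factor under 10 in the authors' deposited table, so they were not called. The widest differences were in CEP290 (54 nt, 0.42 in siSNRPB2 and 0.67 in siCtrl), AURKA (98 nt, 0.55 and 0.31), PCM1 (186 nt, 0.68 and 0.88) and CENPK (206 nt, 0.75 and 0.55). CEP192 (122 nt, 0.81 and 0.96) had 10 and 0 exclusion-only reads, with an adjusted p of 0.0354 by Fisher's exact test. Over the 3 events of the AURKA exon the median ψ difference was -0.06, opposite in sign to the event used.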
